A study of Mus musculus with 6 samples.

Results

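Replication-dependent histone genes were described in ATAC-seq peak lists of vascular smooth muscle cells, which form the muscular layer of arteries, cultured from mouse. Members were the protein-coding genes on mm10 whose symbol begins with Hist1h to Hist4h, or with the newer H2ac, H2bc, H3c or H4c, or is H1f followed by 1 to 6. The rule found 63 of 21887 protein-coding genes on chromosomes 1 to 19, X and Y. There were 17 H2A, 16 H2B, 12 H3, 12 H4 and 6 H1 genes. The rule also matched 2 pseudogenes, which were left out because they are not protein-coding.

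The knockdown group had 3 libraries, each from cells given a different siRNA against Arid3a (si-Arid3a#1, #2 and #3), and the control group had 3 libraries from cells given a negative control. ARID3A is a transcription factor that binds AT-rich DNA through its ARID domain, and the study asked which open regions differ after its knockdown. Cells were purchased primary cells, kept 24 h after transfection, and each assay used 50000 cells and 30 min of Tn5 transposase, the enzyme that cuts accessible DNA. The spread among knockdown libraries therefore holds differences between siRNAs. Whether the libraries of each group were made from separate cultures is not stated in the labels, so the spread may be technical. They also describe an angiotensin II treatment without naming the libraries that received it. Peak lists do not measure RNA, so the level of Arid3a itself was not checked here.

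Replication-dependent histone genes supply the histones that package newly copied DNA. They are expressed almost wholly in S phase, lack introns in their coding form, and give messages that end in a stem-loop rather than a poly(A) tail. NPAT, activated by cyclin E and CDK2, gathers at the clusters in a nuclear body with the factors that cut the 3′ end of the message. Smooth muscle cells divide rarely in a healthy artery and divide in culture.

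A gene was called open in a library when a peak overlapped by at least 1 base a window of 1000 bases on each side of either annotated gene end. Fold enrichment below is the authors' own value at a peak's summit, relative to the surrounding background in that library. It is scaled within a library and was used to describe and rank peaks, not to test a difference between groups. Tags are reads counted at the summit, recovered from the deposited fold and p.

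The promoters that the results turn on are shown first, each as the 150 bases before the annotated start, from RefSeq on GRCm38.p6, the mm10 assembly. Capitals mark a CCAAT box, a TATA box (TATAAA), the octamer (ATTTGCAT), the H1 box (AAACACA) or ATTAAA, the core of an AT-rich ARID3A motif, on either strand. H2ac12 and H2bc12 are a head-to-head pair under the region of highest mean fold, and lie at chr13:22035644-22035793 on the minus strand and chr13:22035671-22035820 on the plus strand.
H2ac12: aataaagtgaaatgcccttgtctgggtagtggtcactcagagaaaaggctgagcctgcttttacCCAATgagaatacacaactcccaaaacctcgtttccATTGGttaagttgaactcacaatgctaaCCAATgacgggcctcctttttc
H2bc12: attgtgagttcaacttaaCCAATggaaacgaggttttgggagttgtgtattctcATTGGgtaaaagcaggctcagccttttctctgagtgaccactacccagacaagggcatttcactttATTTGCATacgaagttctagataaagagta

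H4c11 and H4c12 are near-copies of each other with different peak calls. They lie at chr13:21734884-21735033 on the plus strand and chr13:21750554-21750703 on the minus strand. Both genes have TATAAA on their own strand near the start. In H4c11 it runs across the annotated start, so the printed bases cut it off and it is not in capitals.
H4c11: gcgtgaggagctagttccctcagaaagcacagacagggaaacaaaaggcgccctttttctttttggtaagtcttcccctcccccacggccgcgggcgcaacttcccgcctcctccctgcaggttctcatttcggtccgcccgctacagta
H4c12: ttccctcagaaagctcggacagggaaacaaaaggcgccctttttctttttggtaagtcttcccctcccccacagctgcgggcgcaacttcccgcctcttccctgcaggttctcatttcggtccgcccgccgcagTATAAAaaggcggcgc

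H4c9 had peaks in knockdown libraries only, and H3c4 had no peak although its promoter holds several of the motifs. They lie at chr13:22041363-22041512 on the minus strand and chr13:23575613-23575762 on the plus strand.
H4c9: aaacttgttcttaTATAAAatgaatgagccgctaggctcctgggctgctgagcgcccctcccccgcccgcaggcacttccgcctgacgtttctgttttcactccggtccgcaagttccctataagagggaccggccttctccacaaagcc
H3c4: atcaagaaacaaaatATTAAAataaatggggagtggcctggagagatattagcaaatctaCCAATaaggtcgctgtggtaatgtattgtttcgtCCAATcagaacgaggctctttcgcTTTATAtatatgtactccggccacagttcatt

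H1f4, a linker histone of dividing somatic cells, and H1f6, the testis linker histone H1t, are shown as an open and a closed H1 promoter. They lie at chr13:23622559-23622708 on the minus strand and chr13:23695661-23695810 on the plus strand.
H1f4: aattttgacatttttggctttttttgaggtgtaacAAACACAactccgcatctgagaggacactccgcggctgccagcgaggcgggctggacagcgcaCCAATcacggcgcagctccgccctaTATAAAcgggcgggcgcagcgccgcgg
H1f6: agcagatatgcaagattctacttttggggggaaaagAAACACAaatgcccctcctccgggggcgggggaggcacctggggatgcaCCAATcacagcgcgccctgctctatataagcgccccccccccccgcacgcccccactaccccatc

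The knockdown libraries 1, 2 and 3 held 50543, 51279 and 41629 peaks, and the control libraries 51330, 33248 and 52091. The median peak had 11, 11 and 8 tags at its summit in knockdown libraries and 11, 8 and 11 in control libraries. Knockdown 3 and control 2 thus had the shortest list of their group and the fewest tags. A gene missing from either of them may lie below what that library could show. They are called shallow below in this sense only, since depth in reads is unknown. Of 6 smooth muscle markers, Acta2, Tagln and Smtn were open in all 6 libraries and Cnn1 in 4, while Myh11 and Des had no gene-end peak. No endothelial marker was open in all 6 (Kdr in 2, and Pecam1, Cdh5 and Tie1 in 0), no epithelial marker was open in any (Epcam, Cdh1 and Krt8), and among leukocyte markers Cd68 was open in all 6 and Ptprc, Adgre1 and Cd3e in 0.

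Most histone genes lay in open chromatin in both groups. Of the 63 genes, 51, 51 and 45 were open in the knockdown libraries and 48, 39 and 48 in the control libraries. As shares these are 81.0%, 81.0% and 71.4% in knockdown and 76.2%, 61.9% and 76.2% in control, beside 50.5%, 50.8% and 45.5% of all protein-coding genes in knockdown and 50.8%, 42.6% and 51.2% in control. The histone share was the higher in each library. In all 6 libraries 35 histone genes were open (55.6%, against 36.5% of all genes), 19 were open in 1 to 5 (30.2%, against 22.1%) and 9 in none (14.3%, against 41.4%).

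**Figure D1:**
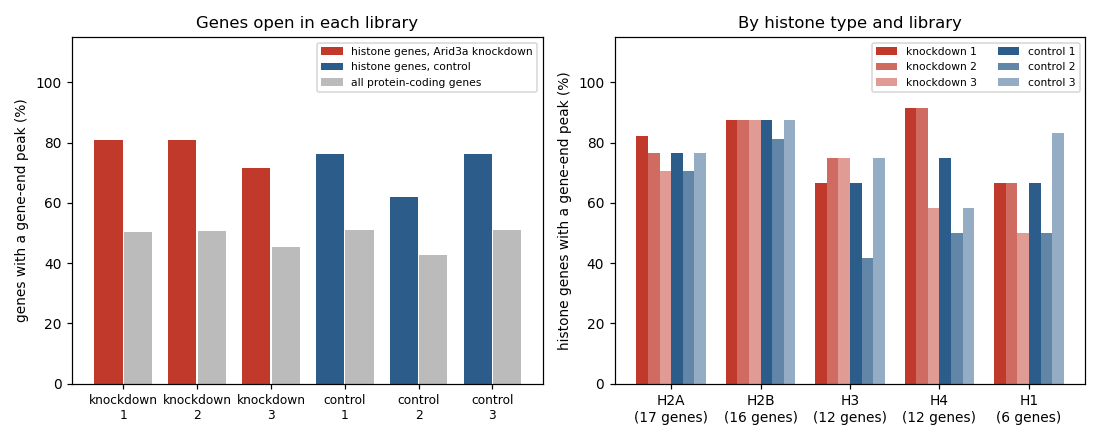
Left, the share of genes with a gene-end peak in each library, for the 63 histone genes (red, knockdown; blue, control) and for all 21887 protein-coding genes (grey). Right, the share by histone type in each library, with the 3 knockdown bars left of the 3 control bars; H2B stays at 13 or 14 of 16 genes, while H4 runs from 11 of 12 genes in knockdown 1 and 2 to 6 of 12 in control 2.

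Histone genes are short and crowded, so windows at their ends overlap and a single peak can serve a pair of neighbours. Of 58 histone genes of at most 1000 bases, 31 were open in all 6 libraries (53.4%), against 1.91% of the 1519 other protein-coding genes that short. Those 1519 were chosen by length alone. What kinds of gene they are was not examined, so they are not a set matched in other respects. When each peak was given only to the gene whose end lay nearest its summit, 13 of the 63 remained (20.6%), against 29.3% of all genes, so the order of the 2 shares turned round. With a peak required over the 300-base RefSeq promoter, 23 of the 58 histone genes in that table were called in all 6 libraries (39.7%), against 31.8% of 17492 genes, and 17 were called in none (29.3%, against 46.4%). The promoter windows were called in 38, 37 and 29 histone genes of knockdown libraries and in 35, 25 and 33 of control libraries. H2bc21, H4c14, H3c7, H2bc4 and H3c1 had no entry in the promoter table.

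Histone peaks had a lower median fold than all gene-end peaks in most libraries. The number of distinct histone peaks was 47, 41 and 31 in knockdown and 41, 31 and 35 in control. Their median fold was 6.48, 6.65 and 7.08 in knockdown libraries, beside 7.61, 7.58 and 6.59 for all gene-end peaks of the same libraries. In control libraries it was 6.50, 5.97 and 7.12, beside 7.46, 6.41 and 7.48. Knockdown 3 was the exception, where the histone median was above that of all gene-end peaks. Ranked by fold within the whole list, the median histone peak stood at percentiles 43.7, 46.0 and 65.2 in knockdown libraries. In control libraries it stood at 44.7, 52.8 and 54.5. Histone peaks were also narrower than all gene-end peaks. Median widths were 341, 380 and 411 bases in knockdown libraries against 460, 478 and 441. In control libraries they were 387, 340 and 447 bases against 476, 449 and 504. Median tags of histone peaks were not lower, with 14, 16 and 14 in knockdown libraries against 14, 15 and 11 for all gene-end peaks. In control libraries they were 16, 11 and 18 against 14, 10 and 15.

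Members at most 100 kb apart formed 5 groups. The 10 genes on chromosome 3 (chr3:96219885-96270192) are the older Hist2 cluster, and chromosome 13 held the Hist1 genes in 4 groups. Group 1 (chr13:21715711-21833475) had 17 genes, group 2 (chr13:22035122-22043658) had 5, group 3 (chr13:23531044-23764412) had 29 and group 4 (chr13:23933725-23934913) had 2. Group 4 alone had no peak in any library. Its pair, H2bc1 and H2ac1, encodes the testis histones TH2B and TH2A.

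Open members in the chromosome 3 cluster numbered 9, 8 and 7 in knockdown libraries and 8, 6 and 8 in control libraries, with 5 of 10 open in all 6. In group 1 the counts were 11, 12 and 11 in knockdown and 11, 11 and 11 in control, with 9 of 17 open in all 6. Group 1 was thus the steadiest of the large clusters, although 4 of its genes had no peak at all. In group 2 the counts were 5, 5 and 4 in knockdown and 4, 4 and 4 in control, with 4 of 5 open in all 6. In group 3 they were 26, 26 and 23 in knockdown and 25, 18 and 25 in control, with 17 of 29 open in all 6. Control 2 had 9 fewer open histone genes in all than each other control library, and 7 fewer in group 3.

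Peaks covered 14.4%, 13.8% and 10.5% of the gene-end windows of group 3 in knockdown libraries and 13.3%, 7.30% and 13.6% in control libraries. On chromosome 3 the covered shares were 19.3%, 16.0% and 12.4% in knockdown and 16.3%, 11.8% and 20.7% in control. Across all histone windows they were 14.1%, 13.5% and 10.4% in knockdown and 12.7%, 9.14% and 14.1% in control, beside 6.87%, 7.09% and 5.62% (knockdown) and 7.11%, 5.17% and 7.49% (control) of the windows of all genes. In these windows the covered share was lowest in the library with the shortest list of each group. Group 1 had 11.9%, 11.6% and 10.2% in knockdown and 10.9%, 10.6% and 13.3% in control, the same order. Group 2 had 14.2%, 19.7% and 9.57% in knockdown and 12.6%, 14.5% and 11.1% in control, where control 2 was instead the highest control library. The covered shares of histone genes and of all genes are not matched for gene length. The windows at the ends of a short gene merge and surround its start, while a long gene adds a separate window at its far end. What part this has in the higher histone share was not tested.

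**Figure D2:**
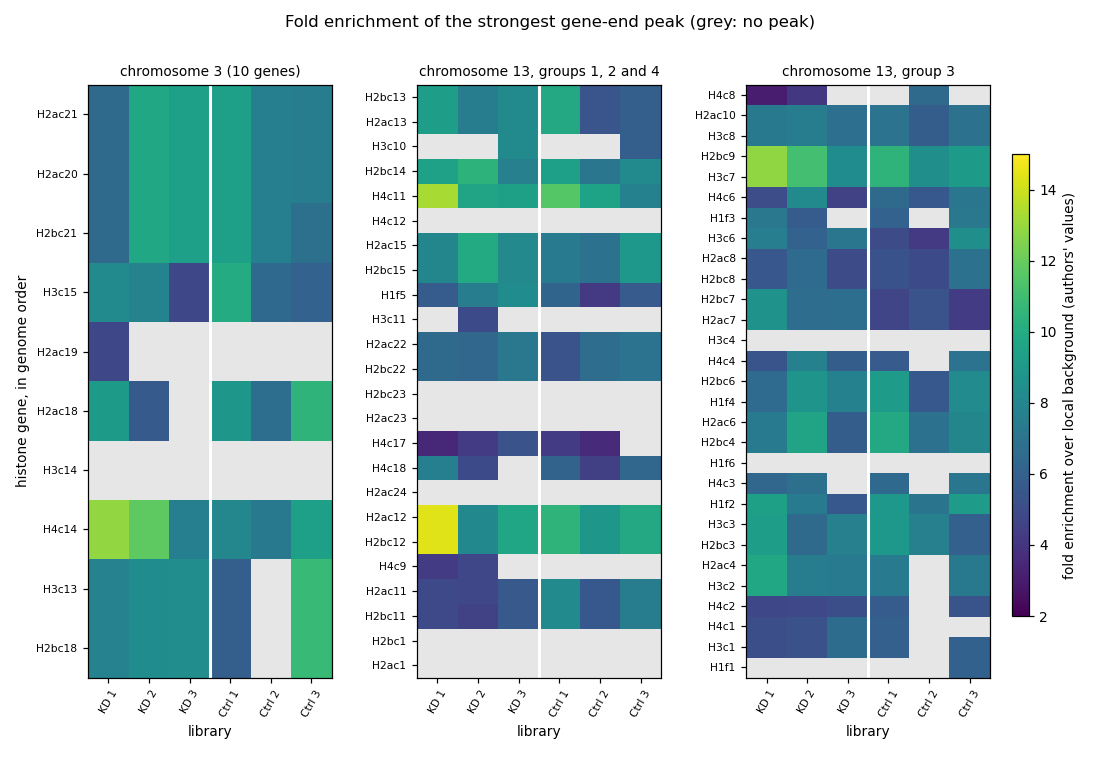
Fold enrichment of the strongest gene-end peak of each histone gene (rows, in genome order) in each library (columns; knockdown left of the white line, control right), with grey for no peak. Neighbours that share a peak have equal colours, 9 genes are grey in all 6 columns, and control 2 has the most grey cells.

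H2B and H2A genes were called in all libraries more often than H3 and H4 genes. Of 16 H2B genes, 13 were open in all 6 libraries, 1 in some and 2 in none. Of 17 H2A genes, the partners of H2B in the nucleosome, 11 were open in all 6, 3 in some and 3 in none. The 12 H3 genes split into 5, 5 and 2, and the 12 H4 genes into 3, 8 and 1. Open H4 genes numbered 11, 11 and 7 in knockdown libraries and 9, 6 and 7 in control libraries, which overlap. H2B, by contrast, gave 14, 14 and 14 in knockdown and 14, 13 and 14 in control.

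Without knockdown 3 and control 2, the remaining 4 libraries all called 14 H2B genes (87.5%), 13 H2A, 8 H3, 7 H4 (58.3%) and 4 H1, against 44.0% of all genes. Over the 300-base promoters, 11 of 14 H2B and 9 of 17 H2A genes had a peak in all 6 libraries, against 2 of 10 H3, 1 of 11 H4 and 0 of 6 H1 genes. With each peak given to the nearest gene only, the counts were 0 of 17 for H2A, 5 of 16 for H2B, 3 of 12 for H3, 3 of 12 for H4 and 2 of 6 for H1. That rule gives a peak shared by neighbours to 1 of them in each library, so these counts also depend on which neighbour's end lies nearer to the summit.

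Head-to-head H2A and H2B pairs carried much of the steady signal. There were 9 such pairs in which both strands were known from the promoter table, with 163 to 280 bases between the 2 starts. H2bc4 beside H2ac6 and H2bc21 beside H2ac20 were not counted, since the strands of H2bc4 and H2bc21 were not given there. A region at both neighbours was called in all 6 libraries in each case. In 7 pairs a single peak met both genes in all 6 libraries. The other pairs, H2bc23 with H2ac23 in group 1 and H2bc1 with H2ac1 in group 4, had no peak in any.

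The pair of highest mean fold was H2ac12 and H2bc12, whose promoters are printed above. Their shared region, chr13:22035044-22036288, had a fold of 14.4, 8.08 and 9.63 in knockdown libraries and 10.4, 8.86 and 9.86 in control libraries. These rest on 33, 18 and 17 tags in knockdown and 24, 17 and 20 in control. Knockdown 1 was the highest and knockdown 2 the lowest, so the groups overlapped, and the mean over 6 libraries was 10.2 ± 2.20 (SD).

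H2bc9 and its neighbour H3c7 shared peaks with a fold of 12.9, 11.1 and 8.31 in knockdown and 10.5, 8.49 and 9.07 in control (mean 10.0 ± 1.77, SD, n = 6). Both groups again spanned a common range. H4c14, on chromosome 3, had 12.9, 11.8 and 7.60 in knockdown against 8.04, 7.23 and 9.33 in control, so knockdown 3 lay inside the control range.

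At the low end, H2ac8 and H2bc8 shared a peak of fold 5.52, 6.55 and 5.01 in knockdown and 5.29, 4.92 and 6.88 in control (mean 5.70 ± 0.83, SD, n = 6). H2bc11 had 4.85, 4.52 and 5.65 in knockdown and 8.16, 5.59 and 7.53 in control. Control 2 was just below knockdown 3, so the H2bc11 groups overlapped by those 2 libraries. H2bc13 and H2ac13, near the median of their types, had 9.26, 7.48 and 8.22 in knockdown and 9.84, 5.42 and 5.92 in control. H2ac6 and H2bc4, also near the middle, had 7.42, 9.59 and 5.82 in knockdown and 9.87, 6.89 and 7.97 in control.

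Among the 35 genes open in all 6 libraries, H2bc7 and H2ac7 were those whose folds did not overlap between groups. Their shared region, chr13:23574050-23574566, had 8.65, 6.65 and 6.71 in knockdown and 4.69, 5.31 and 4.29 in control, on 29, 19 and 14 tags in knockdown and 14, 10 and 14 in control. They share the peak and are a single observation. Among all 7978 such genes, 3.37% had every knockdown fold above every control fold and 2.14% the reverse, of which 0 were histone genes. Folds are scaled within a library, so the separation describes peak height relative to each library's own background.

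The 19 genes open in some libraries were mostly those missing from the shallow ones. Of these, 15 were not called in control 2, 9 were not called in knockdown 3, and 18 were missing from at least 1 of the 2. Each knockdown library called 16, 16 and 10 of them, and each control library 13, 4 and 13. Their median of tags was 14, against 16.5 for the genes open in all 6. By number of libraries 13 of them were open in more knockdown than control libraries, 3 in more control libraries and 3 in equal numbers. The same counts were not made over all 4844 genes open in 1 to 5 libraries. None of them is therefore read as particular to histone genes.

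For 7 genes, control 2 was the only library without a call. They were H3c13 and H2bc18 on chromosome 3, and H4c4, H2ac4, H3c2, H4c2 and H3c1 in group 3. H3c13 and H2bc18 shared peaks with a fold of 7.76, 8.34 and 8.39 in knockdown and 5.94 and 10.8 in control 1 and 3. H2ac4 and H3c2 shared peaks of 9.77, 7.501 and 7.312 in knockdown and 7.308 and 7.251 in control 1 and 3. The folds of H3c13 and H2bc18 overlapped between groups. Those of H2ac4 and H3c2 were all higher in knockdown than in the 2 control libraries with a peak, with knockdown 3 and control 1 nearly equal. They share the peak and are a single observation. H4c2 had the reverse order, given below. The share of all genes with either order was not computed.

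H4c4 had 5.37, 7.72 and 5.83 in knockdown and 5.75 and 6.94 in control 1 and 3. H4c2 had 4.84, 4.85 and 5.13 in knockdown and 5.78 and 5.36 in those control libraries. H3c1 had 5.10, 5.21 and 6.60 in knockdown and 5.99 and 6.02 in them. The control 3 peak of H3c1, chr13:23762333-23762711, was not the region of the others, chr13:23761295-23761694, which control 3 did not call. H4c2 thus kept within a narrow range of low folds, all of them lower in knockdown than in control 1 and 3. The highest folds of H4c4 and H3c1, both in knockdown libraries, stood at percentiles 59.1 and 59.1 of their lists.

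H2ac18 and H4c18 lacked a call in knockdown 3 only. H2ac18 had 9.07 and 5.66 in knockdown 1 and 2, and 8.89, 6.68 and 10.4 in control. H4c18 had 7.62 and 4.92 in knockdown 1 and 2, and 6.12, 4.44 and 6.31 in control, on only 4 to 8 tags. H4c17, missing in control 3 only, had 3.43, 4.24 and 5.35 in knockdown and 4.25 and 3.61 in control 1 and 2, on 3 to 5 tags. These H4 peaks were the thinnest of any member and their summits lay 572 to 688 bases past the start.

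H1f3 and H4c3 were missing from both shallow libraries. H4c3 had 6.31 and 6.78 in knockdown 1 and 2 and 6.44 and 7.12 in control 1 and 3. H3c10 was called in knockdown 3 (8.22) and control 3 (5.92), in each case through the edge of the peak of H2ac13 and H2bc13. H2ac19 was called in knockdown 1 alone (4.81) and H3c11 in knockdown 2 alone (4.91), while H1f1 was called in control 3 alone (6.02).

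No histone gene was open in every library of 1 group and in none of the other. Over all genes 0.164% were open in 3 of 3 knockdown and 0 of 3 control libraries, and 0.0914% in the reverse pattern, so this pattern was rare genome-wide as well. Promoter peaks gave the same count of 0 histone genes in each direction, beside 0.149% and 0.16% of genes. At least 2 more knockdown than control libraries were open for H4c9 and H4c1 (3.17% of 63, against 1.4% of all genes), and at least 2 more control libraries for 0 (against 1.23%).

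H4c1 had a fold of 5.10, 5.21 and 6.60 in knockdown and 5.99 in control 1, with no peak in control 2 and 3. Its summits lay at -284 to -221 bases from the start. Without control 1, H4c1 was open in knockdown libraries only, beside 0.466% of all genes under that condition. H4c9 was open in knockdown 1 (4.32, on 9 tags) and knockdown 2 (4.76, on 11 tags), and in no control library. Those peaks were not the same region. The knockdown 1 peak was at chr13:22040907-22041096, over the far end of the gene, and the knockdown 2 peak at chr13:22041280-22041482 over the start.

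H4c8 was called in knockdown 1 (3.04), knockdown 2 (4.12) and control 2 (6.51), so the shallowest control library held its highest fold. The knockdown 1 peak was at chr13:23530979-23531181. Those of knockdown 2 and control 2 lay in another region, chr13:23531391-23531820. Without knockdown 3, H4c9 counted as open in knockdown only (beside 0.443% of all genes). Without both shallow libraries, H4c8 and H4c9 did (beside 0.612%), through peaks of 8 to 12 tags. For each gene, the knockdown 1 and knockdown 2 peaks were not the same region. Ranked by fold within their lists, the knockdown peaks were low, at percentiles 0.172 and 9.22 for H4c8 and 13.1 and 18.2 for H4c9. The control 2 peak of H4c8 stood at percentile 61.8.

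In group means 49 ± 3.46 histone genes were open in knockdown libraries and 45 ± 5.20 in control libraries (SD, n = 3 each), a difference of 4 that is smaller than the spread among control libraries. The gene-end windows held 15992 ± 2524 covered bases in knockdown and 15107 ± 3211 in control (SD, n = 3 each), a difference of 885 that is also smaller than the spread in either group. It was -506 with lists of equal length, -900 without control 2 and -7.83 without knockdown 1, so it had no steady direction. With every list shortened to the length of the shortest by p, 40, 40 and 45 histone genes were open in knockdown libraries and 42, 39 and 46 in control libraries, and the difference became -0.67. Over all genes 10707 ± 646 were open in knockdown and 10547 ± 1066 in control (SD, n = 3 each; exact two-sided permutation p = 1, where the smallest p is 0.1).

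Peaks at open histone genes mostly sat close to the start. For the 31 genes open in all 6 libraries and present in the promoter table, the median distance of the summit from the start was -50.5 bases (negative is before the start), with quartiles at -139.75 and 10.75. Of these, 22 of 31 lay within 250 bases. By type the median was -50.5 for 11 H2A genes and -78.5 for 11 H2B genes. H3 and H4 were too few for a typical value, with 4 and 2 genes.

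Summits far from the start belonged in part to a neighbour. H2ac10 was open in all 6 libraries through the promoter peak of H3c8, at 1325 to 1445 bases past its own start. That peak had a fold of 7.25, 7.45 and 6.74 in knockdown and 6.96, 5.83 and 6.84 in control. Knockdown 1 alone also had a lower peak over the start of H2ac10 (4.88, on 14 tags). H3c3 was open through the peak of H2bc3, at -1135 to -905 bases from its start, and had no promoter peak in any library. H3c15 had peaks of 8.16, 7.82 and 4.83 in knockdown and 10.0, 6.46 and 6.08 in control, at 911 to 1046 bases past its start and none over the promoter.

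**Figure D3:**
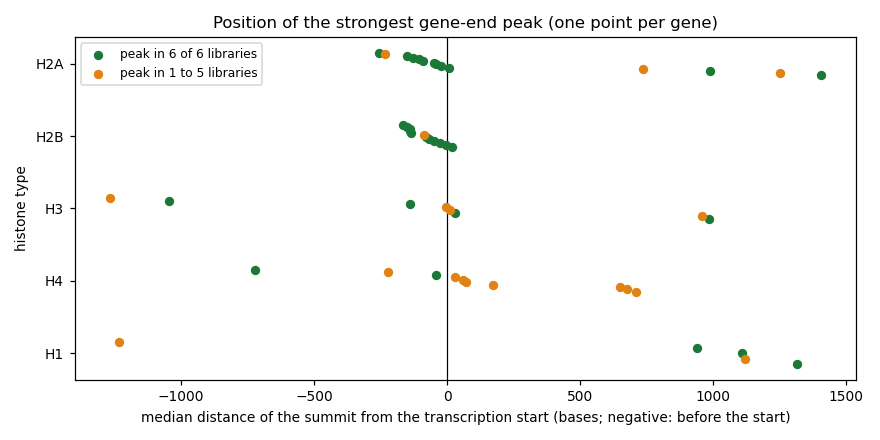
Median distance of the strongest gene-end peak's summit from the annotated start, one point per histone gene with a strand in the promoter table (horizontal axis, bases). H2A and H2B points crowd at or before the start, 3 H1 genes open in all 6 libraries lie 937.5 to 1313.5 bases past it, and H4 is spread over both sides. The H1f4 point, at 1313.5, is the peak over the start of its neighbour H2bc6.

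Linker histones, which bind the DNA between nucleosomes, come from the H1 genes. H1f2, H1f3, H1f4 and H1f5 were open at both ends, and the peak past the annotated end was the higher in each library that called both, except for equal folds at H1f4 in knockdown 1. H1f2 had a fold of 9.39, 7.42 and 5.58 in knockdown and 8.92, 6.99 and 9.18 in control at chr13:23739494-23740086, with summits 892 to 994 bases past the start. Its start-site region, chr13:23738726-23739027, was called in 4 of 6 libraries, with 6.28 and 4.46 in knockdown 1 and 2 and 5.88 and 4.41 in control 1 and 3. The far peak was thus present in all 6 libraries and the start-site peak was missing from the 2 shallow ones.

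H1f5 had 5.79, 7.52 and 8.31 in knockdown and 6.18 and 5.75 in control 1 and 3 at its far end, chr13:21779187-21779934. Its start-site region, chr13:21780272-21780693, was called in knockdown 1 (5.10), control 1 (4.14) and control 2 (4.21). The far peak was thus absent only from control 2, where the start-site peak alone was called.

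H1f3 had a far peak of 7.19 and 5.81 in knockdown 1 and 2 and of 6.08 and 7.18 in control 1 and 3, against a start-site peak of 4.36 and 4.33 in those knockdown libraries and 3.92 in control 1. H1f4 had 6.52, 8.73 and 7.71 in knockdown and 9.17, 5.56 and 8.25 in control at chr13:23620929-23621945. That region lies over the annotated start of H2bc6 and was counted for both genes. Its summits lay at -209 to -61 bases from the start of H2bc6. They lay 1255 to 1403 bases past the start of H1f4, so they were nearer to H2bc6. The start of H1f4 itself was called in 5 of 6 libraries. The testis gene H1f6 had no peak, and H1f1 had only the control 3 peak shared with H3c1.

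The 9 genes with no peak in any library were H3c14 on chromosome 3, H4c12, H2bc23, H2ac23 and H2ac24 in group 1, H3c4 and H1f6 in group 3, and H2bc1 and H2ac1 in group 4. H1f6, H2bc1 and H2ac1 are the testis-specific members. Among the others, the promoters of H3c14 and H4c12 are near-copies of another histone promoter, and those of H2ac24 and H3c4 are not.

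Promoters were compared pairwise over the 300-base windows. H4c17 and H4c18 were 99.3% identical, H3c14 and H3c15 94.7%, and H4c11 and H4c12 91.3%. Of these 6 promoters, 5 had a peak in no library and H4c11 had one in 1 library. H4c11 was open in all 6 libraries only through a peak at -831 to -713 bases from its start, chr13:21734008-21734568, with a fold of 13.3, 9.58 and 9.39 in knockdown and 11.6, 9.56 and 7.70 in control. H4c12 had no peak at either end.

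Further alike pairs were H2ac18 with H2ac19 (83.7%), H2ac23 with H2ac7 (82.3%) and H2bc23 with H2bc7 (77.3%). In each of them 1 gene had promoter peaks in 5 or 6 libraries (H2ac18, H2ac7 and H2bc7) and its partner had them in 0. The sources used here do not say how reads that match several copies were handled, and its part in these calls was not tested. Calls for these genes are therefore uncertain.

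**Figure D4:**
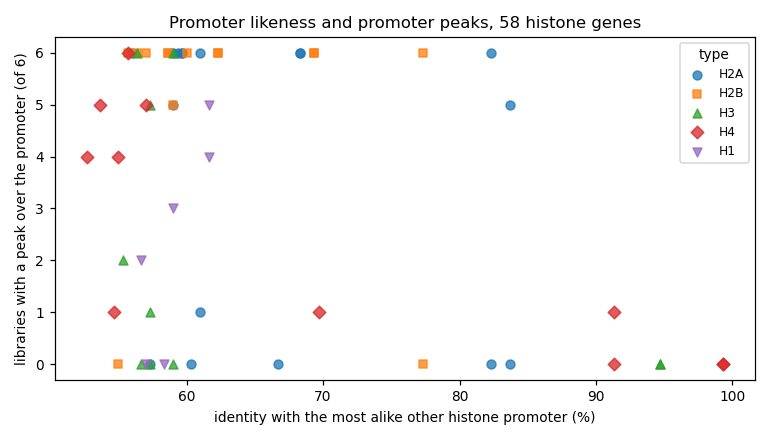
Number of libraries with a peak over the 300-base promoter (vertical axis, of 6) against the percent identity of that promoter with the most alike other histone promoter (horizontal axis), one point per histone gene, with a marker per type. The 6 genes above 90% have peaks in 0 or 1 library, while promoters below 80% spread from 0 to 6.

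Histone promoters shared short motifs that the choice of genes did not use. A search of both strands found CCAAT in 50 of 58 histone windows (86.2%, against 38.2% of 21263 RefSeq windows of that length) and TATAAA in 34 (58.6%, against 12.6%). The octamer ATTTGCAT, which OCT-1 binds, was in 13 (22.4%, against 1.66%), all of them H2A or H2B genes. The H1 box AAACACA was in 9 (15.5%, against 6.15%), including 5 of 6 H1 genes. No motif contains another, and windows of a head-to-head pair overlap, so a pair can count 1 match for each gene.

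CCAAT was in every one of the 17 H2A, 14 H2B, 10 H3 and 6 H1 windows and in 3 of 11 H4 windows. TATAAA was in 8 of 11 H4 windows. By openness, CCAAT was in 29 of 31 windows of genes open in all 6 libraries, 13 of 18 of those open in some and 8 of 9 of those open in none. For the octamer the counts were 9 of 31, 2 of 18 and 2 of 9. CCAAT was thus present in most windows of each class, and the printed H3c4 window is a closed example.

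ATTAAA was in 12 of 58 histone windows (20.7%, against 11.7% of all windows), in 7 of 31, 4 of 18 and 1 of 9 by the same classes. A match is a string of letters and not a bound site. The windows were also less rich in G and C than most, with a median of 45.3% against 56.3%.

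**Figure D5:**
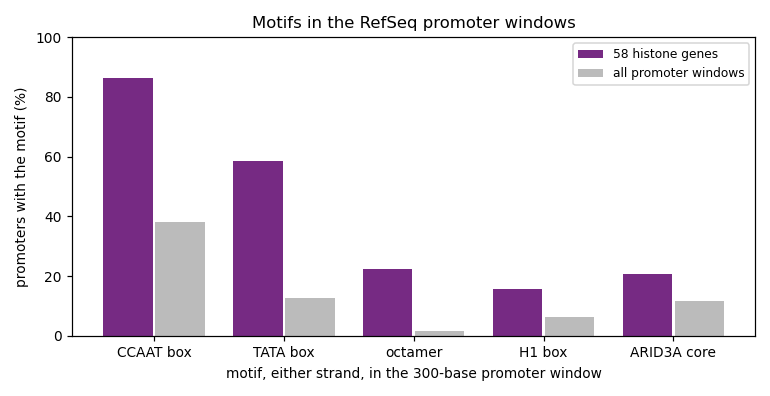
Share of 300-base promoter windows that hold each motif on either strand, for 58 histone genes (purple) and for all 21263 windows (grey). All 5 motifs are commoner in histone windows, from 86.2% against 38.2% for the CCAAT box to 15.5% against 6.15% for the H1 box.

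Most listed genes that drive or process histone messages were open in both groups. Of 21 listed regulators, 15 were open in all 6 libraries (71.4%, beside the 36.5% of all genes), 6 in some and 0 in none. Npat had a fold of 12.7, 14.6 and 11.4 in knockdown and 10.0, 10.3 and 13.8 in control, with overlap. Casp8ap2, which encodes the processing factor FLASH, had 14.1, 16.4 and 12.4 in knockdown and 16.6, 10.0 and 16.1 in control. Hinfp, a zinc-finger factor of H4 promoters, had 13.2, 12.6 and 12.03 in knockdown and 14.8, 10.5 and 12.5 in control. Slbp, whose product binds the stem-loop, had 7.63, 6.72 and 9.07 in knockdown and 7.84, 7.18 and 9.15 in control.

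The partly open regulators were Lsm11 and Sympk, parts of the 3′-end machinery, Yy1, Ccne1 (cyclin E1), Pou2f1 (OCT-1) and Gon4l. Pou2f1 was open in 1 knockdown library (4.18) and in 3 control libraries (5.83, 5.55 and 5.37). Among all genes, 1.23% were open in at least 2 more control than knockdown libraries. Gon4l was open in knockdown 3 alone (2.67). None of the 21 was open in 3 libraries of 1 group and 0 of the other.

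Histone genes listed as replication-independent were compared as a further set. Of 11 such genes, 7 were open in all 6 libraries (63.6%), including H3f3a, H2az1, H2az2, H2ax and Cenpa, 3 in some and H3f3b in none. H2az2 had 12.9, 14.6 and 11.02 in knockdown and 13.5, 9.36 and 15.8 in control. Of 12 histone chaperones, which carry histones to DNA, 10 were open in all 6 (83.3%). Asf1b, an S-phase chaperone, had 13.7, 15.1 and 11.3 in knockdown and 17.0, 13.1 and 13.5 in control. Neither list had a gene open in 1 whole group only.

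Other genes between the histone genes were mostly closed, and most of those are receptor genes of a single family. Of 51 other protein-coding genes that lie between the first and last histone gene of a chromosome, 3 were open in all 6 libraries (5.88%), 4 in some and 44 in none. All 36 vomeronasal receptor genes, which are expressed in the pheromone-sensing organ, had no peak. Of the 15 remaining genes, 3 (20%) were open in all 6 (Zfp322a, Hfe and Slc17a4), 4 in some (Zfp184, Abt1 and Btn2a2 in 5 libraries, Pom121l2 in 1) and 8 in none. Those 8 include H4bc24, a histone symbol that the rule does not match. Zfp322a had 16.9, 14.2 and 7.52 in knockdown and 9.91, 10.9 and 12.9 in control, a higher fold in knockdown 1 than any histone gene in any library.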

How the data were processed

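Each of the 6 ATAC-seq libraries had 1 deposited peak list. Per the submitters' processing notes, reads were processed with Bowtie2, Picard and MACS2 on mm10. The sources used here give no versions, parameters, duplicate handling, Tn5 shift or treatment of reads matching several places. The deposited fold (a ratio) and −log10 p and −log10 q are the authors' values per peak, and the deposited score restates −log10 q as a whole number and was not used. The smallest −log10 q lay just above 1.30 in each list, as a q cutoff of 0.05 leaves.

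Genes were placed with a RefSeq table of GRCm38.p6, the mm10 assembly, and promoters and strands taken from a RefSeq promoter table (250 bases before to 50 after the start), which matched 58 of 63 members. Tags were recovered as the whole number from 1 to 600 that matched −log10 p within 0.001 under a Poisson model with a pseudocount of 1, which succeeded for 99.996% of peaks or more in every library. Depth in reads is unknown, and tag numbers show which weak peaks a list can hold. The calls and the tag recovery were tested on simulated data.

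A gene open in 3 of 3 libraries of a group and 0 of 3 of the other was counted, since 3 against 3 cannot give an exact p below 0.1. Counts over the members have no p. The all-gene count was tested over all 20 relabellings of the libraries. Named genes are all members open in 0 to 5 libraries, all H1 genes, the 5 highest and 5 lowest mean folds and those nearest each type's median. H4c14, the comparison of H2bc7 and H2ac7, and the genes open through a neighbour were picked after their values were seen. The members and lists were chosen with earlier results of these data known. Alternatives were other windows, stricter peaks, at least 50% of a peak inside the window, nearest-gene assignment, equal list lengths, libraries left out, pairing, and a promoter window chosen after seeing the data. Symbols H2aw, H2bu2, H4f16 and H4bc24 do not match the rule and were not counted as members. All members carried older Hist1 or Hist2 symbols, so no Hist3 or Hist4 gene was described. H4bc24 was counted among the other genes within the clusters. Python 3.11.15, numpy 2.4.6, pandas 2.3.3, scipy 1.17.1 and matplotlib 3.10.9 were used.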

Additional observations from a re-analysis of the deposited data

How the results depend on the processing

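Of 147 recomputed values, 127 met the criterion for their kind: a move under the replicate spread for a difference without a test, a kept sign and call for the tested all-gene difference, and within 1.5 times for a count. Another 15 moved further, and 5 values of the all-gene difference changed sign. Differences without a test could change sign within the replicate spread. The 35 genes open in all libraries became 21 with only peaks of −log10 q of 5 or more, 13 with each peak given to the nearest gene, and 23 over promoters, an alternative chosen after seeing the data. They were 35 to 42 when 1 library was left out, where a count over fewer libraries cannot fall. Per cluster, the count in group 2 became 2 with stricter peaks, 0 with nearest genes and 2 with equal list lengths (reported as 4). Group 3 became 9 with stricter peaks and 7 with nearest genes (17). Chromosome 3 became 2 with nearest genes and 8 without the shallowest library of each group (5), and group 1 became 4 with nearest genes (9). The histone difference of 4 became -0.67 with equal list lengths and ran from 1 to 6 when 1 library was left out. The difference of 885 covered bases became -506 with equal list lengths and ran from -900 to 2329 with 1 library left out, negative without knockdown 1 (-7.83) and without control 2 (-900). The all-gene difference of 160 became -111 with equal list lengths and -83 without both shallow libraries, and ran from -455 to 532 with 1 library left out (-12 without knockdown 1, -41 without knockdown 2, -455 without control 2). Knockdown-only genes, reported as 0, ran from 0 to 1 with 1 library left out and were 2 without both shallow libraries; the cause was not tested. Covered bases were not run for the nearest-gene and 50% alternatives.

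Same-numbered libraries did not pair: the correlations of their deviations were 0.0177, -0.0993 and -0.0880. As a replicate block, the pair differences in histone genes open were 3, 12 and -3 (mean 4), and those in all genes open were -78, 1791 and -1234 (mean 160, exact sign-flip p = 1, where the smallest p is 0.25).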
